A study of Mus musculus with 2 samples.

Results

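Respiratory complex I was measured here through the 37 nuclear protein-coding genes whose symbols begin with Nduf followed by a, b, c, s or v and a digit. They are 37 of the 18366 annotated mouse genes with a read, and the assembly factor genes (Ndufaf) are not among them. Long-read RNA sequencing, in which 1 read follows a transcript over much or all of its length, had been done on the left cerebral cortex of B6CASTF1/J mice, male and 14 days old, the first-generation cross of C57BL/6J with CAST/EiJ. The labels give no treatment and 1 group of 2 libraries (replicates 1 and 2), each from 2 µg of total RNA, so no conditions can be compared. The donor identifier is the same for both and their descriptions mention several males, so pooled animals are possible. The p-values rest on the counting error of the reads alone and hold no estimate of the spread between animals or libraries, and that spread may be technical.

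Complex I (NADH:ubiquinone oxidoreductase) is the entry point of the respiratory chain in the inner mitochondrial membrane. It takes electrons from NADH, passes them along a flavin and iron-sulphur clusters to ubiquinone, and couples this to the pumping of protons. Its catalytic core is conserved from bacteria, in part encoded by the mitochondrial genome, and is surrounded by accessory subunits that are needed for assembly and stability. Neurons rely on it for most of their ATP, and mutations in its genes cause Leigh syndrome and related encephalopathies.

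The members held 3958 of 775048 mouse reads in replicate 1 (0.511%, 95% Wilson interval 0.495% to 0.527%) and 6066 of 924222 in replicate 2 (0.656%, 0.640% to 0.673%). All 37 genes had a read in both libraries, and 36 had at least 10 reads over both. Each long read is 1 molecule, so levels are given as CPM, the reads of a gene per 1000000 mouse reads, and are not divided by length. A CPM is a share of the molecules sequenced, and in bulk tissue fewer cells of a type cannot be told apart from less RNA per cell. The intervals cover counting error only. Markers of excitatory cortical neurons were present in both libraries, with Slc17a7 at 1060 and 1216 reads and Tbr1 at 96 and 97.

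Most subunits lay between 50 and 300 CPM. The 35 genes whose products are complex I subunits spanned 6.22-fold from the highest to the lowest mean, with a coefficient of variation of 40.0%, and 34 of them lay between 50 and 300 CPM. The median member stood at 132 CPM, against 18.2 CPM over protein-coding genes with a read. In the order of mean levels, the ranges over the 2 libraries failed to overlap in only 3 of 36 neighbouring pairs, so most of the order is not resolved. Across the 36 members with 10 reads, log2 CPM in the libraries correlated with Pearson's r = 0.92 and Spearman's rho = 0.90, a description over genes that share both libraries.

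**Figure D1:**
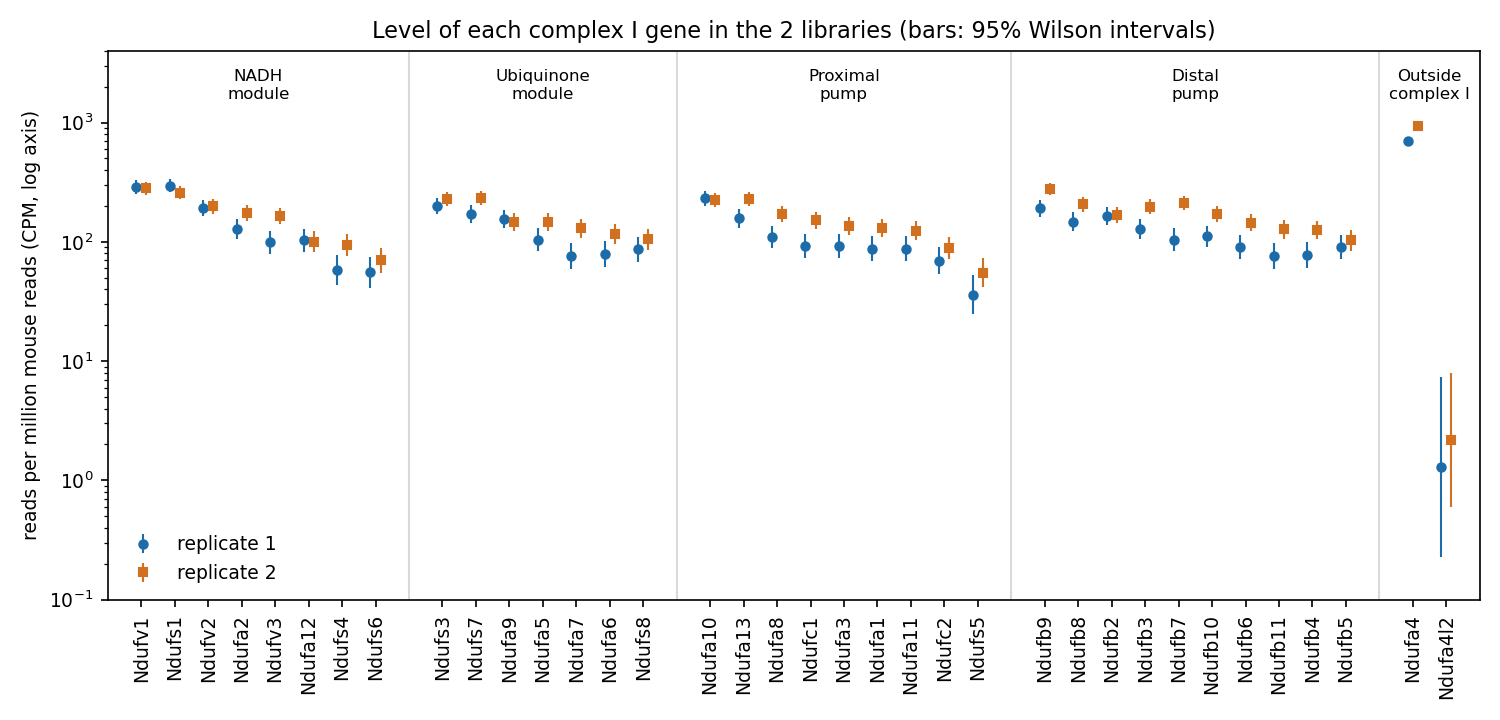
Level of 36 of the genes in CPM (log axis) in replicate 1 (circles) and replicate 2 (squares), grouped by module, with 95% Wilson intervals. All but Ndufa4, Ndufa4l2 and Ndufs5 lie between 50 and 300 CPM on average.

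The exception at the top was Ndufa4, on chromosome 6 (11900292 to 11907497, minus strand, mm10), with 542 and 857 reads (699 and 927 CPM). Although named as a complex I gene, its product is now regarded as a subunit of cytochrome c oxidase, complex IV. Its mean of 813 ± 161 CPM (SD, n = 2) compares with 284 ± 5.30 CPM for Ndufv1, the next gene, and the lower Ndufa4 library lay above both Ndufv1 libraries. Its paralog Ndufa4l2, which hypoxia induces in many cell types, was near the floor with 1 and 2 reads (1.29 and 2.16 CPM). With 1 to 3 reads in a library no order between the libraries can be read for Ndufa4l2.

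In the NADH module, the peripheral tip where NADH is oxidised, levels ran from 62.9 to 284 CPM over 8 genes. Ndufv1, which carries the flavin and the NADH site, had 223 and 259 reads (288 and 280 CPM). Ndufs1, the largest subunit of the module and a carrier of iron-sulphur clusters, had 229 and 238 reads (295 and 258 CPM). Ndufv1 and Ndufs1 came next after Ndufa4 in level, and their values over the libraries overlapped. Ndufv2, a further iron-sulphur subunit, had 149 and 184 reads (192 and 199 CPM). Ndufv3, an accessory subunit at the tip, had 77 and 152 reads (99.3 and 164 CPM). The lowest genes of this module were accessory subunits. Ndufs4, in which mutation causes Leigh syndrome, had 45 and 87 reads (58.1 and 94.1 CPM), and Ndufs6, which binds zinc, had 43 and 65 reads (55.5 and 70.3 CPM). Ndufa2 and Ndufa12 lay between these extremes, with 100 and 162 reads and with 80 and 93 reads.

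The ubiquinone module, where electrons reach ubiquinone, had 8 genes between 95.7 and 213 CPM. Ndufs3, a core subunit of the peripheral arm, had 154 and 210 reads (199 and 227 CPM). Ndufs7, which carries the last iron-sulphur cluster before ubiquinone, had 133 and 216 reads (172 and 234 CPM). Ndufs8, a subunit with a pair of iron-sulphur clusters, had 67 and 97 reads (86.4 and 105 CPM) and was the lowest core subunit. The 7 nuclear core subunits thus spread from 95.7 to 284 CPM on average, although the complex holds 1 copy of each. The accessory genes Ndufa5, Ndufa6, Ndufa7 and Ndufa9 averaged 97.8 to 151 CPM.

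In the proximal part of the membrane arm, 9 genes ran from 45.7 to 227 CPM. Ndufa10, an accessory subunit on the matrix side, had 179 and 206 reads (231 and 223 CPM) and was among the 5 highest members. Ndufs5, which faces the intermembrane space, was the lowest subunit with 28 and 51 reads (36.1 and 55.2 CPM). The Ndufs5 value is uncertain, because the processed pseudogene BC002163 matches 60.8% of its transcript at 99.4% identity and was assigned 27 and 38 reads. Ndufc2, another membrane subunit, had 54 and 82 reads (69.7 and 88.7 CPM). The remaining 6 genes, Ndufa1, Ndufa3, Ndufa8, Ndufa11, Ndufa13 and Ndufc1, averaged 106 to 193 CPM. The other 6 near-identical copies of members found among annotated transcripts (at least 90% identity over 50% of the transcript) had no read in either library.

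The distal part of the membrane arm held 10 genes, all between 96.6 and 234 CPM. Ndufb9 was the highest with 148 and 256 reads (191 and 277 CPM), and Ndufb8 followed with 114 and 191 reads. Ndufb5 was the lowest with 70 and 95 reads (90.3 and 103 CPM). The level of Ndufb2 (128 and 156 reads) holds reads that may not be its own. An unspliced model on the plus strand of chromosome 6 (39603310 to 39607668) brought 50 and 46 of them. That model overlaps the last annotated exon of Ndufb2 by 73 bases and lies within the last exon of Braf (39603237 to 39610404), a gene on the opposite strand. Spliced Ndufb2 reads alone numbered 77 and 110 (99.3 and 119 CPM).

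Ndufab1, the acyl carrier subunit, does not match the naming rule and had 84 and 141 reads (108 and 153 CPM). The 7 subunits encoded by the mitochondrial genome gave few reads, 57 and 104 in all (73.5 and 113 CPM). Of these genes, mt-Nd1 had 15 and 31 reads, mt-Nd2 17 and 30, mt-Nd4 10 and 23, and mt-Nd5 13 and 18. mt-Nd3 had 1 and 2 reads, mt-Nd6 1 and 0, and mt-Nd4l none, which allows up to 3 reads per library. How far these counts reflect transcript levels rather than the making or processing of the libraries was not tested. The assembly factors, which build the complex but are not part of it, were lower than the subunits, with a median of 29.4 CPM over the 15 of 16 listed genes with a read. Nuclear genes of complexes II to V had a median of 236 CPM over 39 gene identifiers.

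Reads of the members were a larger share of replicate 2. Per gene, reads were set against all other mouse reads of each library with Fisher's exact test, two-sided, and Benjamini-Hochberg adjustment over the 11203 annotated genes with at least 10 reads. The test compares 2 libraries, not conditions. Of 36 members tested, 8 were higher in replicate 2 and 0 were lower, beside 1.1% of all tested genes higher and 1.01% lower. The log2 ratio of replicate 2 over replicate 1 (0.5 reads added) was above 0 in 30 of 36 members, beside 48.5% of all tested genes, and its median was 0.49, beside -0.01. At an unadjusted p under 0.05 there were 22 members, all higher, beside 5.3% of all tested genes higher at that threshold.

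Ndufb7, a membrane arm subunit on chromosome 8 (83566671 to 83571626), showed the largest difference. It had 81 reads in replicate 1 and 195 in replicate 2 (105 and 211 CPM), a log2 ratio of 1.01 (95% interval 0.64 to 1.38, adjusted p = 1.15e-05 by Fisher's exact test). Ndufa4 differed by 0.41 (0.25 to 0.56, adjusted p = 5.62e-05). The Ndufa4 call was lost with Known transcripts alone, at a log2 ratio of 0.37 on 244 and 376 reads (adjusted p = 0.0767). It was also lost with the total of its length class, at a ratio of 0.09 (adjusted p = 0.804). Ndufb7 passed under each alternative tried.

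Ndufv3 differed by 0.72 (adjusted p = 0.0196) and Ndufb9 by 0.53 (adjusted p = 0.0225). Ndufb3, with 100 and 182 reads, differed by 0.61 (adjusted p = 0.0356). Ndufc1, with 72 and 140 reads, differed by 0.70 (adjusted p = 0.0380). These 4 genes are accessory subunits of the tip and of the membrane arm.

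Ndufa7, with 59 and 120 reads, differed by 0.76 (adjusted p = 0.0380). Ndufa13, also known as GRIM-19, had 122 and 212 reads and differed by 0.54 (adjusted p = 0.0464). By module, 1 of 8 genes passed in the NADH module, 1 of 8 in the ubiquinone module, 2 of 9 in the proximal part and 3 of 10 in the distal part. None of the 7 core subunits passed. With spliced models alone or no filter on low counts, Ndufb3, Ndufc1 and Ndufa13 no longer passed, and without the filter Ndufa7 did not either. With Known transcripts alone, Ndufb3, left with 33 and 68 reads, and Ndufc1 did not pass, while Ndufb8 did. Ndufa13 had no Known read and could not be tested there.

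The members with short transcripts carried the difference. Lengths are those of the most read Known, NIC or NNC model, mostly annotated, with incomplete chains passed over. For Ndufa4 this was 610 bases, although its most read chain had models of 1088 and 281 bases, and for Ndufa13 it was 387 bases, although its most read chain had 573. The 25 members under 1000 bases, Ndufa4l2 included, pooled to a log2 ratio of 0.54 (95% interval 0.47 to 0.61). Of them, 24 had a ratio to score, each above 0. All 962 tested genes of that length, members included, pooled to 0.34 (0.32 to 0.35), with 662 above 0. The 4 members of 1000 to 1300 bases pooled to 0.26 (0.07 to 0.45). The 8 members of 1300 bases or more pooled to -0.04 (-0.15 to 0.08), with 3 above 0. Ndufb2 is among these 8 by an annotated length of 4371 bases. Its ratio was 0.03, and 0.26 (-0.16 to 0.68) with its spliced reads alone. All 9599 tested genes of 1300 bases or more pooled to -0.04 (-0.05 to -0.04), with 4384 above 0. Across the 36 members, the log2 ratio correlated with log2 length at Pearson's r = -0.67 and Spearman's rho = -0.50, a description over genes of the same 2 libraries. Over all 11203 tested genes the relation was weak, with r = -0.11 and rho = -0.10.

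The core subunits differed from the rest in the same sense. Pooled, the 7 core genes stood at 0.05 (-0.07 to 0.16) and the other 30 members at 0.46 (0.40 to 0.53). The 5 core genes of 1000 bases or more pooled to -0.04 (-0.17 to 0.09), and the 2 shorter ones, Ndufs7 and Ndufs8, to 0.39 (0.14 to 0.65). Ndufs4 stood outside this order, with a model of 1698 bases and a ratio of 0.69 (0.17 to 1.21, adjusted p = 0.185).

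The medians of all tested genes also differed by length, in the shorter classes. The median log2 ratio was 0.32 under 600 bases, 0.22 from 600 to 800, 0.20 from 800 to 1000 and 0.10 from 1000 to 1300, and between -0.05 and -0.01 in each longer class. The medians of the members were higher in the shorter classes, at 0.56 (10 genes), 0.51 (10 genes) and 0.66 (4 genes). When the reads of all tested genes of the same length class served as the total, an alternative chosen after the data were seen, the members' median fell to 0.10 and 1 member passed, Ndufb7 (log2 ratio 0.69, adjusted p = 0.0198 by Fisher's exact test). Whether the length of the molecules sequenced accounts for the difference between libraries was not tested.

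**Figure D2:**
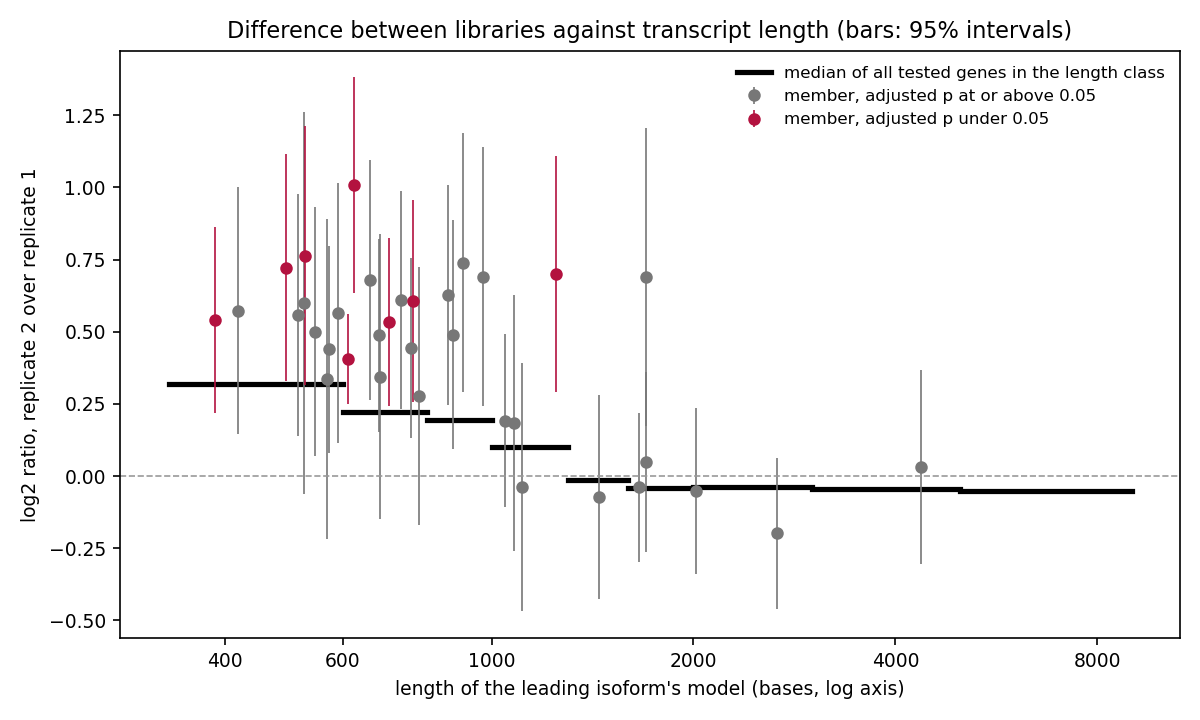
Log2 ratio of replicate 2 over replicate 1 against model length (log axis) for 35 of the members tested, with 95% intervals; black bars are medians of all tested genes in each length class. Every member drawn under 1000 bases lies above 0, beside 662 of all 962 tested genes of that length. Those drawn of 1300 bases or more, apart from Ndufs4, lie between -0.20 and 0.05.

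Other genes of the pathway differed by list, and the lists also differed in transcript length. Of the 38 tested gene identifiers of complexes II to V (median length 823.5 bases), 11 were higher and 1 was lower, with a median of 0.31. The median of their length class medians was 0.20. Cox4i1, a subunit of cytochrome c oxidase with a model of 578 bases, had 875 and 1700 reads (log2 ratio 0.70, adjusted p = 5.47e-30). Atp5a1, the alpha subunit of ATP synthase with 2471 bases, was the lower one with 1068 and 1082 reads (-0.24, adjusted p = 0.0148). Of 13 tested assembly factors (median length 1673 bases), none passed in either direction and the median was 0.00, beside -0.04 for their length classes. The 4 mt-Nd genes tested (median length 1208 bases) had ratios of 0.20 to 0.91, beside 0.04 for their length classes, and none passed.

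The libraries also differed in markers of neighbouring tissues and of other cells, some lower and some higher in replicate 2. The 7 striatal markers summed to 928 CPM in replicate 1 and 223 CPM in replicate 2, with 5 of 6 tested genes lower, and Drd2 and Adora2a were at 0 in replicate 2. The 3 choroid plexus markers summed to 38.7 and 256 CPM, almost all from Ttr, with Clic6 at 0 in replicate 1. The 4 haemoglobin genes summed to 276 and 532 CPM, and the 4 oligodendrocyte markers to 3045 and 1999.5 CPM. The 3 meningeal markers summed to 141 and 233 CPM, with 1 higher. The part of these tissues and cells in the members' difference was not tested.

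The members were mostly read as annotated transcripts. Each deposited model has a class, of which Known matches an annotated transcript and an incomplete splice match (ISM) holds only part of its chain of introns. NIC models join annotated splice sites in an unannotated way, NNC models use an unannotated site and genomic models do not match the splicing. Known models held 78.5% and 77.5% of member reads, beside 72.8% and 71.7% over all protein-coding genes. NIC and NNC models held 2.25% and 1.67% of member reads in replicate 1 and 2.21% and 1.34% in replicate 2, beside 7.07% and 4.43%, and 6.87% and 4.50%, over protein-coding genes. Of the Known reads of members, 98.6% and 98.4% fell on protein-coding transcripts.

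ISM models held 15.7% and 17.7% of member reads, beside 10.6% and 11.0% over protein-coding genes. This share came from 4 genes. Of 33 members with at least 50 reads in each library, 4 had an ISM share of 30% or more, beside 8.48% of all scored genes. The median share was 2.33% over the members and 5.60% over all scored genes. Without Ndufa4, Ndufa13, Ndufs7 and Ndufb3, singled out after their values were seen, the members' ISM share was 2.87% and 3.72%.

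**Figure D3:**
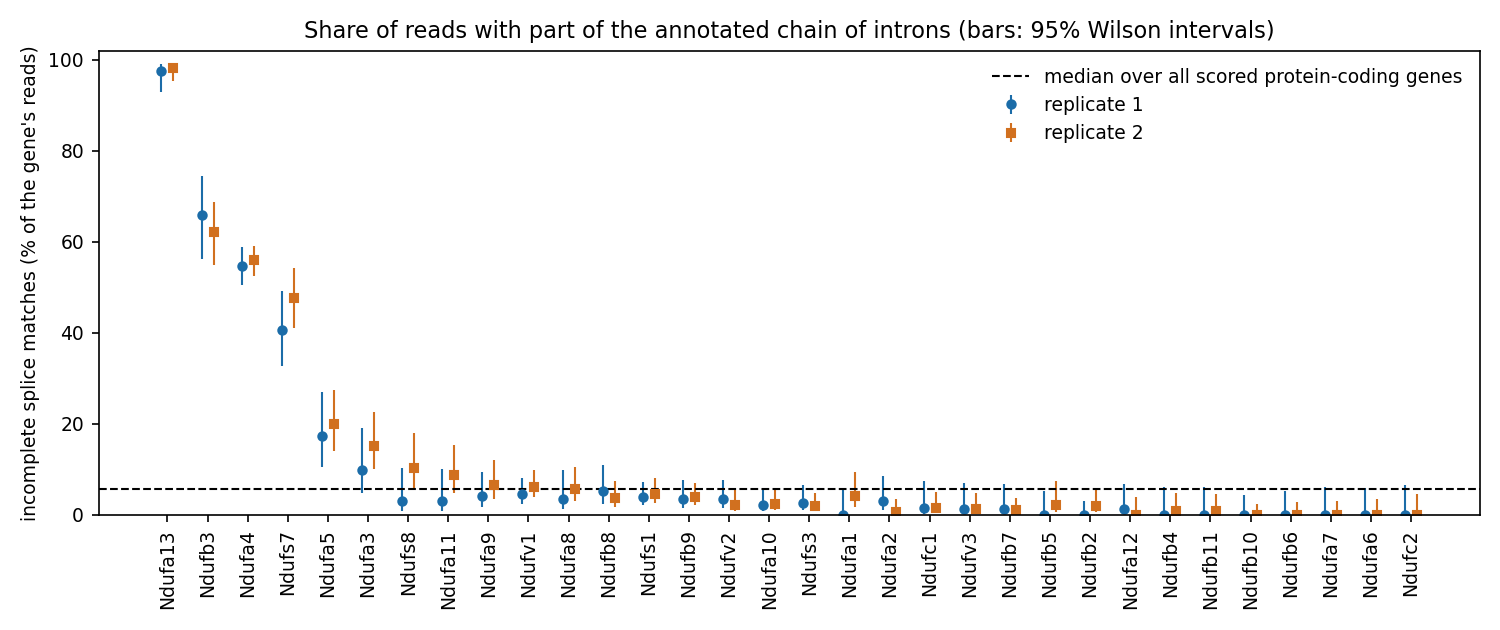
Share of each gene's reads that are incomplete splice matches, for 32 of the members scored (50 or more reads per library), with 95% Wilson intervals. Ndufa13, Ndufb3, Ndufa4 and Ndufs7 stand above 30% in both libraries, and 26 of those drawn are below 10% on average.

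Of the reads of Ndufa4, the most read member, more fell on a chain of 1 intron than on the whole chain. The annotated coding region of Ndufa4 (transcript Ndufa4-205, 249 bases in 4 exons, mm10 chr6:11900535-11907365, minus strand) is printed with the bases of its last 2 exons in capitals, because the main incomplete chain holds only the intron between them.

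Ndufa4 coding region: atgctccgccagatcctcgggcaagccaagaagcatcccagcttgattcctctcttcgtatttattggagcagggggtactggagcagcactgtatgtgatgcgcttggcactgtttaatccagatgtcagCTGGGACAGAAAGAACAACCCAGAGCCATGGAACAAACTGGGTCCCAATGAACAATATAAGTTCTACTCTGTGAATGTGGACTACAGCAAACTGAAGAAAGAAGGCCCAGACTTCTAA

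The chain of the last 2 exons of Ndufa4 had 290 and 472 reads (53.5% and 55.1% of the gene's reads), and the whole chain of Ndufa4-205 had 243 and 375 reads (44.8% and 43.8%). The annotated last 2 exons hold 118 of the 249 coding bases and not the start codon, which lies in exon 1. The files give 1 pair of ends per chain and library, so where single reads began and ended is not known. Both Ndufa4 models began at the annotated start of the exon, but at the 3′ end the model of replicate 1 ran 727 bases past the annotated end (1088 bases in all, beside 610 for Ndufa4-205), and that of replicate 2 had 281 bases. The cause of the incomplete chain was not tested.

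Ndufs7 and Ndufb3 were alike in this respect. For Ndufs7, on chromosome 10, the chain of the last 2 of 8 exons had 49 and 100 reads (36.8% and 46.3%), beside 72 and 105 reads for Ndufs7-201. Those exons as annotated hold 187 of 675 coding bases (27.7%). The model of replicate 1 had their 246 bases, and that of replicate 2 had 1330, with 1084 more at the 5′ end. For Ndufb3, on chromosome 1, unspliced reads of the last exon alone numbered 66 and 113 (66.0% and 62.1%), beside 33 and 68 for the 3-exon transcript Ndufb3-201. That exon holds 157 of 315 coding bases (49.8%), and the start codon lies in exon 2. In each of these 3 genes the incomplete chain lacks the annotated start codon.

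Ndufa13 was a different case. Its ISM share was 97.5% and 98.1%, and no read was Known. The chain of 117 and 202 reads holds 4 of the 5 annotated exons of Ndufa13-201 and lacks only the first, which has no coding base. The start codon lies in exon 2, so the chain holds all 435 coding bases, and the label of incompleteness refers to the 5′ untranslated exon alone. Of 122 and 212 reads, 0 were Known, which allows up to 3 such reads per library.

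**Figure D4:**
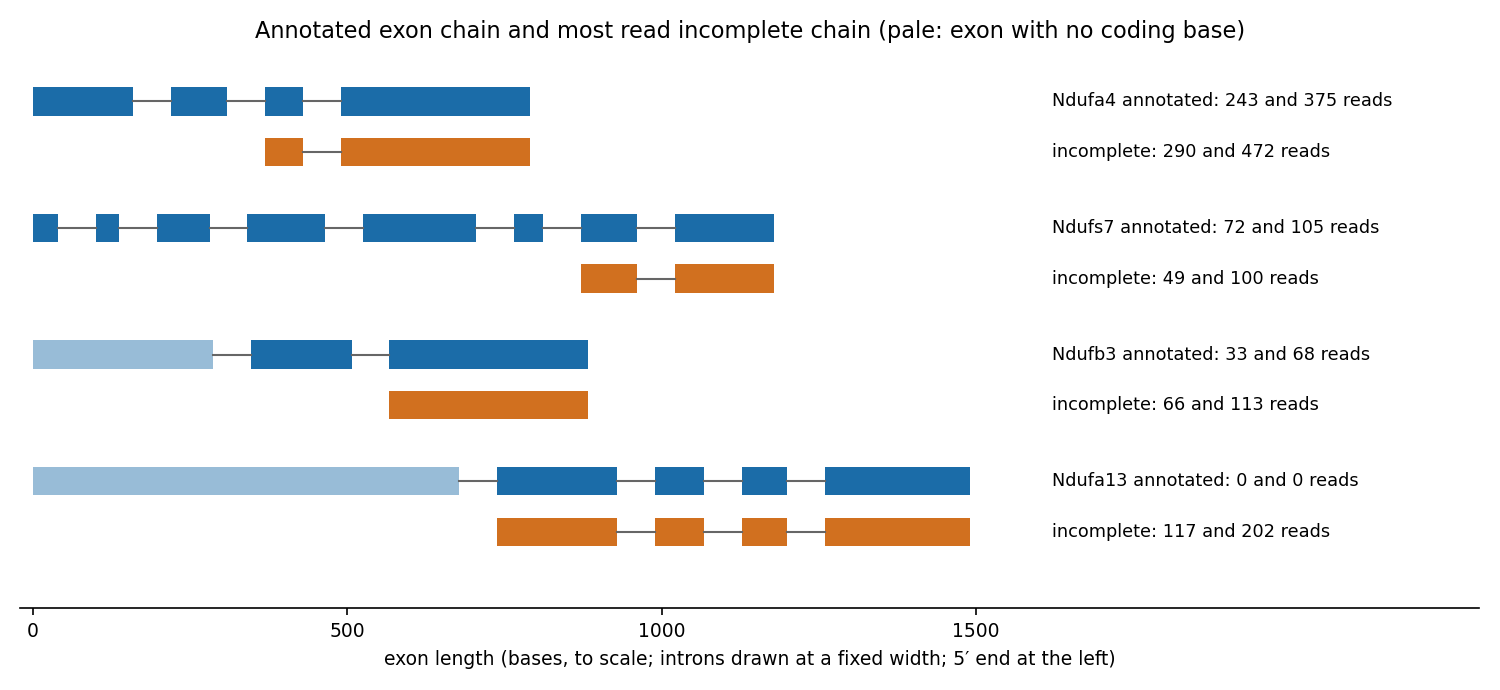
Exons of the annotated transcript (blue) and of the most read incomplete chain (orange) for Ndufa4, Ndufs7, Ndufb3 and Ndufa13, exon widths to scale in bases and introns at a fixed width, with reads in replicates 1 and 2. The incomplete chains are drawn to the annotated exon ends, which the deposited models of Ndufa4 (1088 and 281 bases) and of Ndufs7 in replicate 2 (1330 bases) do not share, and reach the coding start only in Ndufa13.

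Among complete chains, most members had 1 leading isoform. Counting Known, NIC and NNC reads only, and genes with 50 or more of them per library, 31 members could be scored. Their leading isoform took 94.6% of such reads at the median, beside 88.2% over 2631 scored genes. It was a Known transcript in 31 of 31 and the same in both libraries in 31 of 31. Only 3 members had 2 or more isoforms at 10% or more in both libraries, beside 29% of all scored genes. The members are short, with a median length of 760.5 bases beside 2747 over all tested genes. Neither share was compared among genes of like length or exon number. By a chi-square test per gene, isoform shares differed between the libraries in 0 of 32 members tested at an adjusted p under 0.05. Over 2911 genes, 5.19% were called at that adjusted threshold. With 32 members tested, 0 is not read as a departure from that share. At an unadjusted p under 0.05 the count of members was also 0. The read counts of the members limit what this test can find. With Known, NIC and NNC chains alone the count was also 0.

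Ndufs1 was the most varied. Ndufs1-201 had 116 and 110 reads and Ndufs1-203 had 55 and 58, and they differ in the donor of the first exon by 158 bases. A 104-base exon (chromosome 1, 63172154 to 63172257, minus strand), annotated in other transcripts of Ndufs1 but in neither of these, joined 19.0% and 20.4% of reads at the next exon (42 of 221 and 46 of 226). It occurred with both donors, in chains of 18 and 25 reads and of 14 and 20 reads. All of these choices lie upstream of the start codon, so the annotated coding region is the same.

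Ndufs8 and Ndufb2 also varied outside their coding regions. In Ndufs8, a donor 243 bases downstream of the usual one, which lengthens the first exon, was used in 15 of 66 and 16 of 87 reads (22.7% and 18.4%), ahead of the start codon. In Ndufb2, a donor 4 bases further on was used in 28 of 77 and 37 of 110 reads (36.4% and 33.6%), after the stop codon. Ndufb2-205 had 43 and 65 reads and Ndufb2-202, with the later donor, 24 and 27. The annotated 4371 bases of Ndufb2-205 are the annotation's ends, not those of reads.

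Ndufv3 is known for a short and a long protein that differ by 1 exon. The junctions are printed 5′ to 3′ from the annotated transcripts, plus strand of chromosome 17 in mm10, with the bases of the long exon (31527310 to 31528401) in capitals.

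Ndufv3 long, entry: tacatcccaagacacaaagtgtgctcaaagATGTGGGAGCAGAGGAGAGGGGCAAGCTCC

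Ndufv3 long, exit: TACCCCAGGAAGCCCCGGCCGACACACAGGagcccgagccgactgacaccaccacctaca

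Ndufv3 short: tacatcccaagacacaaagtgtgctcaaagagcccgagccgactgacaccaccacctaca

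The exon has 1092 bases, or 364 whole codons, so it leaves the frame unchanged and takes the coding region from 104 to 468 codons. The short form Ndufv3-202 had 63 and 131 reads, and the long form Ndufv3-201 had 11 and 13. At the shared donor, 11 of 76 reads in replicate 1 (14.5%, 95% Wilson interval 8.28% to 24.1%) and 16 of 152 in replicate 2 (10.5%, 6.58% to 16.4%) entered the long exon. The short form was the main one in both libraries, and the intervals of the shares overlapped.

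Smaller splice choices, singled out after their values were seen, changed the annotated coding region of Ndufs4, Ndufa11, Ndufv1 and Ndufa6. The bases that differ in 3 of them are printed from the annotated transcripts (mm10), with the minus strand for Ndufs4 and Ndufv1 and the plus strand for Ndufa11. Capitals mark the skipped exon in Ndufs4-201, the bases left out in Ndufa11-204 and in the unannotated Ndufv1 chain, and the stop codon reached in Ndufs4-202 and Ndufa11-204.

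Ndufs4-201: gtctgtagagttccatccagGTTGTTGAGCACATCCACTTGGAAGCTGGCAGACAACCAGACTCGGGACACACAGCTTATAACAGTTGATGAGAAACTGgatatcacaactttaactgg

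Ndufs4-202: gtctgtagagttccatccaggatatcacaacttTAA

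Ndufa11-201: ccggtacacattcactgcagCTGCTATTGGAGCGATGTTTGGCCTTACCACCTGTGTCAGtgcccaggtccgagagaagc

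Ndufa11-204: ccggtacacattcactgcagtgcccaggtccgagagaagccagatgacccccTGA

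Ndufv1 annotated: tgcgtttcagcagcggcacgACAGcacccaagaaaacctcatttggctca

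Ndufv1 unannotated: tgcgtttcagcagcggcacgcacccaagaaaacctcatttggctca

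In Ndufs4, on chromosome 13, reads that skip the 79-base exon (114351448 to 114351526) numbered 7 of 44 and 7 of 84 (15.9% and 8.33%). The product is the annotated Ndufs4-202, whose coding region has 37 codons beside 175 and whose biotype is nonsense-mediated decay, the pathway that removes transcripts with early stop codons. In Ndufa11, a membrane arm subunit, an acceptor 40 bases downstream was used in 7 of 64 and 9 of 104 reads (10.9% and 8.65%), and the annotated coding region shortens from 143 to 76 codons.

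In Ndufv1, an acceptor 4 bases downstream was used in 8 of 208 and 12 of 240 reads (3.85% and 5%). The full chain with it, absent from the annotation, had 6 and 9 reads. Its frame, read from the annotated start codon, meets a stop after 33 codons, beside 464 in Ndufv1-201. In Ndufa6, skipping of a 116-base exon took 3 of 58 and 9 of 105 reads (5.17% and 8.57%), and the annotated Ndufa6-205 has 72 codons beside 131. For all 4 genes the intervals of the 2 libraries overlapped. In Ndufa7, skipping of a 50-base exon took 3 of 58 and 5 of 118 reads, and the annotated Ndufa7-202 has the biotype nonsense-mediated decay. Minor choices in Ndufb6, Ndufb8, Ndufb9, Ndufs6 and Ndufs7 took between 1.59% and 7.14% of reads, on 3 to 4 reads per library. Ndufb8-205, with 4 and 3 reads, and Ndufs6-202, with 3 and 3, also have the biotype nonsense-mediated decay.

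**Figure D5:**
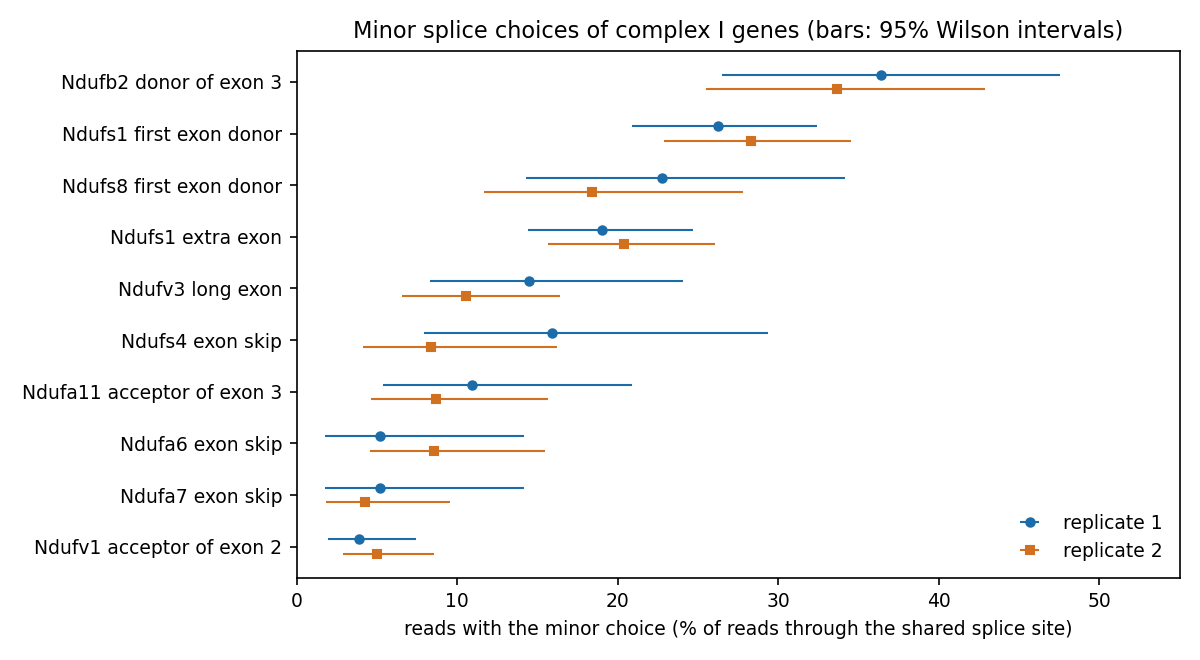
Share of reads with the minor choice at 10 splice choices in 9 members (Ndufs1 has 2) in percent of reads through the shared splice site, with 95% Wilson intervals. The shares in replicates 1 and 2 overlap at each, from 36.4% and 33.6% in Ndufb2 to 3.85% and 5% in Ndufv1.

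Reads on the opposite strand over member exons were rare. They numbered 16 in replicate 1 and 8 in replicate 2 over all members, and 3 members had such reads in both libraries.

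Some promoters of members held a letter sequence at the start codon. RefSeq promoters (GRCm38.p6, 250 bases before to 50 after the gene start, the first listed per gene) were matched by symbol for 32 of 37 members. AAGATGGC, the letters bound by YY1, stood on either strand in 7 of 32 (21.9%), beside 2.88% of 27025 promoters and 5.13% of the 8443 promoters of tested protein-coding genes. In each of the 7 it lay on the sense strand, 23 to 39 bases after the RefSeq start, and its ATG was the annotated start codon, beside 162 of all 778 promoters with these letters (20.8%) and 144 of the 433 of tested protein-coding genes (33.3%). They are printed on the strand of the gene, with the letters in capitals.

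Ndufa3: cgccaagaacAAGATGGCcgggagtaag

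Ndufa9: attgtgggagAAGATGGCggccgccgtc

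Ndufb8: ggagaaggtgAAGATGGCtgcc

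Ndufc1: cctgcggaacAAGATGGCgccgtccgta

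Ndufs4: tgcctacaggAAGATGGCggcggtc

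Ndufs6: ggtcaccggcAAGATGGCggcggtgct

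Ndufs7: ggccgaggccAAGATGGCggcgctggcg

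These lie at chr7:3617385-3617412, chr6:126849098-126849125, chr19:44555393-44555414, chr3:51408916-51408943, chr13:114388045-114388069, chr13:73328433-73328459 and chr10:80249463-80249490 in the order printed. Ndufa3 and Ndufs7 are on the plus strand and the other 5 on the minus strand. The motif of NRF1, a regulator of nuclear genes for mitochondrial proteins, stood in 7 of 32 member promoters (21.9%), beside 4.78% of all and 11.3% of those of tested protein-coding genes. In Ndufa11, Ndufb4 and Ndufs5 a window of 40 bases around a match lay ahead of both the RefSeq start and the GENCODE gene, and it is printed with the match in capitals.

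Ndufa11: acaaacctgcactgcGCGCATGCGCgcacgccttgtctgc

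Ndufb4: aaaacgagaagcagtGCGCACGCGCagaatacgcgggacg

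Ndufs5: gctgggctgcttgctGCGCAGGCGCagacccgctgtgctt

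These windows are chr17:56717687-56717726 (plus strand), chr16:37654535-37654574 and chr4:123718260-123718299 (minus strand). The ETS letters CCGGAAG stood in 4 of 32, 12.5% beside 9.12% of all promoters and 18.8% of those of tested protein-coding genes, so above the first share and below the second. The CREB letters TGACGTCA stood in 3 of 32, 9.38% beside 1.88% and 3.48%. The SP letters GGGGCGGGG stood in 5 of 32, 15.6% beside 11.6% of all promoters and 23.0% of those of tested genes, again between the shares. The NF-Y letters CCAAT stood in 10 of 32, 31.2% beside 37.9% and 38.7%, and the ERR letters TCAAGGTCA in 0 of 32, beside 0.407% and 0.237%. Both strands were searched for each, and a match describes letters, not binding.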

How the data were processed

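The 2 libraries of 1 group were analysed. Per the labels, each was made from 2 µg of total RNA with spike-ins, and the files are on mm10. Per the file headers, the authors deposited, for each library, whole-number read counts per transcript model, each model's class, and its exons in a separate annotation. The notes deposited with the files derive each library's models from its own alignments and the GENCODE M21 annotation. The aligner and its version were not given in the sources used here. Of the members, 1 is counted in all totals and tests but its own values are not reported here. The members and lists were chosen with earlier results of these data known.

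Gene counts are sums over the models of an annotated gene, and library totals are all mouse reads (775048 and 924222). Genes named in 1 library alone as unannotated were left out of the tests, but their reads stay in the totals. Models with several exons were matched between libraries by their introns. Fisher's exact test used genes whose reads summed to 10 or more, and the isoform chi-square test genes with at least 50 in each, with isoforms under 10 reads merged. Both used Benjamini-Hochberg adjustment and a threshold of 0.05, and were tested on simulated data. A splice choice needed at least 3 reads in each library. Named genes were the 5 highest and 5 lowest members, those past a test, those with several isoforms or an unannotated chain of 5 reads in each library, the core subunits, Ndufv3, Ndufa4 and Ndufa4l2, and splice choices and incomplete chains singled out after their values were seen. Alternatives were other totals (TMM from edgeR 4.0.16 among them), filters, classes of reads and the omission of 1 library. Tools were python 3.11.15, scipy 1.17.1, pandas 2.3.3, R 4.3.3 and blastn 2.17.0.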

Additional observations from a re-analysis of the deposited data

How the results depend on the processing

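The count of members higher in replicate 2, 8 in the report, was 5 with Known transcripts alone and 5 with spliced models alone, 4 with no filter on low counts, and 1 with the reads of the same length class as total, an alternative chosen after the data were seen. It was 10 with TMM, 10 with protein-coding reads as total and 12 with a minimum of 50 reads. Under none of these was a member lower. The median log2 ratio ranged from 0.48 to 0.50, apart from the length class total (0.1003). The number of members with 2 or more isoforms, 3, was 5 at a minor share of 5%, 7 with ISM chains counted and 1 with at least 100 reads in each library, where 10 members were scored; with 1 library it was 4 either way. The leading share, 94.6%, was 90.01% with ISM chains counted and 97.4% without models of 1 read, and 94.4% to 94.9% with 1 library. The Known share of member reads, 78.0%, was 81.8% without models of fewer than 5 reads, and its median over members was 92.9%, with 77.5% to 78.5% in single libraries. The ISM share, 16.7%, had a median over members of 2.07%, and single libraries gave 15.7% to 17.7%. The median level ranged from 105 to 147 CPM over single libraries. Isoform usage gave 0 called under each of its alternatives. No paired analysis was possible because there is 1 group. Counting depth limits the minor splice choices, several of which rest on fewer than 10 reads per library.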
